A study of Mus musculus with 4 samples.

Results

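The cells described here are lung CD4 T cells that carried transcript of Pdcd1, the gene of the inhibitory receptor PD-1, while showing no transcript of Foxp3 or of Cxcr6. A cell was a member when it had at least 1 Pdcd1 UMI (unique molecular identifier, 1 counted RNA molecule), 0 Foxp3 UMIs and 0 Cxcr6 UMIs. There were 325 such cells among 7135 kept cells of the tumor-lung library and 115 among 7082 kept cells of the normal-lung library, 440 of 14217 in all. A cell was kept with at least 500 detected genes, under 10% mitochondrial UMIs, at most 2 productive T cell receptor alpha chains and at most 1 productive beta chain. The rule used measured values, so the levels of Pdcd1, Foxp3 and Cxcr6 in the set, and the size of the set, are descriptions. The set was compared with the other Foxp3-zero cells of the same library, those with 0 Pdcd1 UMIs, of which there were 5584 and 6747.

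C57BL/6 mice were the source, in 2 states, and live CD4 T cells were sorted from their lungs. The tumor library came from mice examined 3 weeks after TC1 cells, a transplantable mouse tumor line derived from lung epithelium, had been given through the tail vein. The normal library came from age-matched mice without tumor. Lungs were perfused and digested with collagenase, and lymphocytes were collected on a Percoll gradient, enriched magnetically for CD4 T cells and sorted by flow cytometry, so dissociation and enrichment preceded every count. Each state gave 1 gene expression library (10x Genomics, 5' chemistry) and 1 T cell receptor library, 4 libraries in all, and the number of mice behind a suspension is not stated in the labels. Tumor seeding by this route places tumor cells in a whole lung, so the sorted cells are those of the whole organ and not of dissected nodules. With 1 library per state there was no replicate check and no test, and the state and the library cannot be told apart. All intervals are 95% intervals and cover counting error only, treating cells and UMIs as independent although cells of 1 clone and UMIs of 1 cell are not.

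PD-1 is placed on the surface of T cells after signals through the antigen receptor. When it binds its ligands PD-L1 (Cd274) or PD-L2 (Pdcd1lg2), the phosphatase SHP-2 (Ptpn11) is recruited and dampens signalling from the T cell receptor and from CD28. Among CD4 T cells the receptor is known on recently activated cells, on follicular helper cells, on chronically stimulated cells that also carry the nuclear factor Tox, and on part of the regulatory T cells (Tregs), which depend on Foxp3.

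The tumor and normal gene expression libraries held 35633167 and 31697386 UMIs in 7788 and 7745 barcodes, and the kept cells had median depths of 4173 and 3906 UMIs. The members contributed 1487151 UMIs in tumor lung and 486885 in normal lung, against 23833687 and 26619473 UMIs in the Pdcd1-zero cells. Median depth was 4041 UMIs per member and 4109 per Pdcd1-zero cell in the tumor library, and 3833 and 3905 in the normal library, while the median number of detected genes was higher in members, 1595 against 1488 and 1561 against 1421. Ribosomal protein genes took 25% of member UMIs against 32.7% in the tumor library, and 27.8% against 33.2% in the normal library. The libraries shared 86 barcodes, 4 of them in tumor members and 2 in normal members, and no barcode was a member in both. A UMI of a CD3 subunit gene (Cd3d, Cd3e or Cd3g) was found in 97.8% of tumor members and in all 115 normal members, and a Cd4 UMI in 66.5% and 62.6% of them. A Cd8a UMI was found in 1 tumor member. Marker lists of B, CD8 T, NK, gamma delta T, myeloid, epithelial and erythroid cells summed to at most 14.8 CPM in the members of either library, and none of these genes reached the level at which genes were compared. CPM is the summed count of a gene divided by all UMIs of the same cells, scaled to a total of 1000000.

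Members made up 4.56% (4.08 to 5.06) of kept tumor-lung cells and 1.62% (1.34 to 1.95) of kept normal-lung cells. When kept cells with at least 2417 UMIs were thinned to that depth and the rule was applied again, the shares were 4.23% of 6742 and 1.15% of 6374 cells. Shallower cells were left out of these shares. Thinning also removes Foxp3 and Cxcr6 UMIs, so cells outside the set could enter it. Most Pdcd1-positive cells of the tumor library lay outside the set. Of 1121 Pdcd1-positive tumor cells, 717 (64.0%) had Foxp3 UMIs and 325 (29.0%) were members, whereas of 153 Pdcd1-positive normal cells 24 (15.7%) had Foxp3 UMIs and 115 (75.2%) were members. Cxcr6, a chemokine receptor of tissue memory cells, had a UMI in 79 of 404 Foxp3-zero Pdcd1-positive tumor cells (19.6%) and in 14 of 129 such normal cells (10.9%), and these cells were left out by the rule.

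Transcript freed from other cells can give a UMI in a cell that does not express the gene. Cells with Lef1 and Ccr7 UMIs and no Cd44 or Foxp3 UMI, a gate chosen after values had been seen for the transcripts of naive cells, which should lack Pdcd1, had a Pdcd1 UMI in 104 of 4062 cases in the tumor library (2.56%, 2.10 to 3.09, median depth 4202.5 UMIs) and in 64 of 5397 cases in the normal library (1.19%, 0.914 to 1.51, median depth 3970.0 UMIs). After thinning these shares were 1.65% and 0.623%. Foxp3-zero cells with a Cd44 UMI, a mark of activation, gave 22.5% of 623 cells and 6.67% of 555 cells. The normal-lung share of members, 1.62% of all kept cells, had an interval that overlapped that of naive-type normal cells, and 54.8% (45.2 to 64.1) of normal members themselves passed this naive gate, against 29.8% (24.9 to 35.1) of tumor members. How many members gained their Pdcd1 UMI from free transcript was not tested.

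The members just inside the threshold, with exactly 1 Pdcd1 UMI, were 174 of the 325 in the tumor library and 82 of the 115 in the normal library. A further 44 and 16 had 2 UMIs, 107 and 17 had 3 or more, and the highest counts were 19 and 9. Naive-gated cells were 45.4%, 13.6% and 11.2% of tumor members with 1, 2 and 3 or more Pdcd1 UMIs, and 67.1%, 18.8% and 29.4% of normal members. Median depth in the 3 tumor classes was 4036, 4029.5 and 4153 UMIs.

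The label's other markers were only slightly higher or rare in members. In the GRCm38.p6 assembly Pdcd1 lies on chromosome 1 at 94038305 to 94052553, Slamf6 on chromosome 1 at 171917458 to 171948958, Tox on chromosome 4 at 6686353 to 6991557 and Tox2 on chromosome 2 at 163203058 to 163324172. Tox, a nuclear factor linked to chronic stimulation, stood at 77.3 CPM in tumor members against 52.0 CPM in Pdcd1-zero tumor cells, a ratio of 1.49 (1.22 to 1.80), and at 57.5 against 47.6 CPM in the normal library, a ratio of 1.21 (0.800 to 1.76). A Tox UMI was found in 23.1% of tumor members and 18.9% of Pdcd1-zero tumor cells. Slamf6, a surface receptor of less differentiated activated T cells, was at 163 against 105 CPM in the tumor library (ratio 1.56, 1.36 to 1.78) and at 164 against 109 CPM in the normal library (ratio 1.5, 1.19 to 1.88). Tox2, a relative of Tox, was at 22.2 against 3.90 CPM (ratio 5.69, 3.70 to 8.54, from 33 UMIs in tumor members) and at 8.22 against 2.63 CPM in the normal library (4 UMIs in members). UMIs of all 3 genes were present together in 9 of 325 tumor members (2.77%) and 0.179% of Pdcd1-zero tumor cells. None of the 3 was found in 45.8% of tumor members and in 46.1% of normal members. The members are therefore called here by their rule, PD-1 transcript-positive, and no cell type is assigned to them.

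Across genes with a mean of at least 20 CPM over the 2 sums compared, 867 of 5355 (16.2%) were at least 1.5-fold higher in tumor members than in Pdcd1-zero tumor cells and 169 (3.16%) at least 1.5-fold lower. In the normal library 693 of 5168 (13.4%) were higher and 129 (2.5%) lower. The median log2 ratio over all these genes was 0.18 for tumor lung and 0.16 for normal lung, and with median-of-ratios scaling, which removes that shift, the counts were 563 higher and 363 lower, and 391 higher and 293 lower. Among genes whose interval also lay beyond a ratio of 1 the counts stayed at 867 (16.2%) and 169 (3.16%) in tumor lung and were 511 (9.89%) and 58 (1.12%) in normal lung. These percentages are the background for the list counts that follow. A gene that is rare in Pdcd1-zero cells passes the 20 CPM limit only when it is high in members, so the counts describe the genes that passed and not whole lists.

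Genes known from Tregs were higher in members of both libraries although Foxp3 was absent by rule. Of 14 genes of this kind, 11 passed the limit in the tumor library and all 11 were at least 1.5-fold higher, with a median log2 ratio of 2.76. In the normal library 7 passed and 7 were higher, with a median of 1.56. Several, Ikzf2 and Lrrc32 among them, passed only through their level in members, so these counts were largely set by the limit. Over all 14 genes the medians were 2.75 and 1.48, with a count of 0 set to 3. Ikzf2, which encodes the transcription factor Helios, was at 166 CPM in tumor members against 14.6 CPM (ratio 11.4, 9.65 to 13.5) and at 90.4 CPM in normal members against 8.26 CPM (ratio 10.9, 7.72 to 15.2). Il2ra, the high-affinity interleukin-2 receptor chain, was at 82.0 against 7.64 CPM in the tumor library (ratio 10.7, 8.47 to 13.6) but at 1 UMI in the normal members. Lrrc32, which docks latent TGF-beta on the cell surface, was at 46.4 against 3.36 CPM and at 39.0 against 3.94 CPM. Tnfrsf9, a costimulatory receptor also known as 4-1BB, reached 292 CPM in tumor members against 17.1 CPM (ratio 17.1, 14.9 to 19.6), and 22.6 against 3.61 CPM in the normal library. The costimulatory receptor Tnfrsf4 (OX40) was at 609 against 89.8 CPM and at 199 against 61.8 CPM, and Ccr8, a chemokine receptor of activated Tregs, at 239 against 45.5 CPM and at 20.5 against 15.3 CPM.

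Inhibitory receptors other than PD-1 divided into a group that was higher and a group that was not. Of 12 such genes in the files, 6 passed the limit in each library, and the same 3, Tigit, Ctla4 and Cd5, were at least 1.5-fold higher in both, while Btla, Vsir and Cd96 were within 1.5-fold. Tigit was at 451 CPM in tumor members and 47.6 CPM in Pdcd1-zero tumor cells (ratio 9.48, 8.61 to 10.4), and at 150 and 39.7 CPM in the normal library (ratio 3.78, 2.94 to 4.79). Ctla4, which competes with CD28 for its ligands, was at 646 and 133 CPM (ratio 4.84, 4.50 to 5.21) and at 177 and 59.9 CPM (ratio 2.95, 2.35 to 3.67). Lag3, which binds MHC class II, was low, 22.2 against 2.90 CPM and 18.5 against 1.24 CPM, with 44.4% of the normal members' UMIs in 1 cell. Havcr2, the gene of TIM-3, gave 19 UMIs in all tumor members and 0 in normal members.

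Part of the genes around PD-1 were higher in members. Of 11 genes for its ligands, phosphatases and target kinases, 9 passed the limit. In the tumor library 4 were at least 1.5-fold higher, with a median log2 ratio of 0.39, and in the normal library 2, with a median of 0.44, against 16.2% and 13.4% of all genes tested. None was at least 1.5-fold lower. Cd274, the ligand PD-L1, was at 61.9 against 25.8 CPM (ratio 2.40, 1.91 to 2.99) and at 39.0 against 15 CPM (ratio 2.60, 1.55 to 4.11). The phosphatase gene Ptpn11 was at 55.1 against 31.7 CPM (ratio 1.74, 1.37 to 2.19) and at 51.3 against 31.1 CPM (ratio 1.65, 1.06 to 2.46). Its relative Ptpn6 was at 59.2 against 57.4 CPM in the tumor library, and the kinase gene Lck at 669 against 572 CPM. Pdcd1lg2, the second ligand, stayed below the limit at 26.9 against 4.20 CPM, from 40 UMIs in tumor members.

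Type 1 helper (Th1) and cytotoxic genes were higher in members of both libraries, and Ifng had the largest ratio in each among those that passed the limit. Of 17 such genes, 9 passed the limit in tumor lung and 10 in normal lung, and all of those that passed were at least 1.5-fold higher, with median log2 ratios of 3.17 and 2.25. Several, Ifng among them, passed only through their level in members, so these counts were largely set by the limit. Over all genes of the list that were detected the medians were 2.58 and 2.30, with a count of 0 set to 3. Ifng, the gene of interferon gamma, was at 59.2 CPM in tumor members against 3.15 CPM (ratio 18.8, 13.7 to 25.9) and at 117 CPM in normal members against 13 CPM (ratio 9.03, 6.70 to 12.0), where 1 cell held 38.6% of the members' UMIs. The chemokine gene Ccl5 was at 440 against 47.7 CPM and at 1879 against 336 CPM. It was detected in 22.8% of tumor members and 16.5% of normal members, so the higher normal level came from a smaller share of cells. Cxcr3, the chemokine receptor of Th1 cells, was at 139 against 20.7 CPM (ratio 6.73, 5.69 to 7.93) and at 129 against 15.1 CPM (ratio 8.55, 6.45 to 11.2). Gzmb, a granzyme, was at 140 against 10.9 CPM in the tumor library and at 16.4 against 4.21 CPM in the normal library.

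Effector memory genes followed the same direction. Of 14 genes, all of which passed the limit, 13 were at least 1.5-fold higher in tumor members and 12 in normal members, with medians of 2.25 and 1.73 on the log2 scale. Cd44, the adhesion receptor that marks antigen-experienced T cells, was at 98.8 against 27.1 CPM and at 88.3 against 25.4 CPM, and the calcium-binding protein gene S100a6 at 514 against 70.1 CPM and at 431 against 77.4 CPM. Genes of naive and recirculating T cells lay on the other side, though less so in normal lung. Of 10 that passed the limit, 7 were at least 1.5-fold lower in tumor members and 3 in normal members, with medians of -1.0 and -0.43. Igfbp4, a gene of naive CD4 cells, was at 425 against 1357 CPM in the tumor library (3.19-fold lower, 2.95 to 3.46) and at 651 against 1025 CPM in the normal library (1.57-fold lower, 1.41 to 1.76). Lef1, a transcription factor of naive T cells, was at 307 against 702 CPM and at 598 against 817 CPM. Klf2, which sustains the egress receptor S1pr1, was at 525 against 924 CPM in the tumor library (1.76-fold lower, 1.64 to 1.89) but at 1444 against 1351 CPM in the normal library (ratio 1.07, 0.990 to 1.15).

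**Figure D1:**
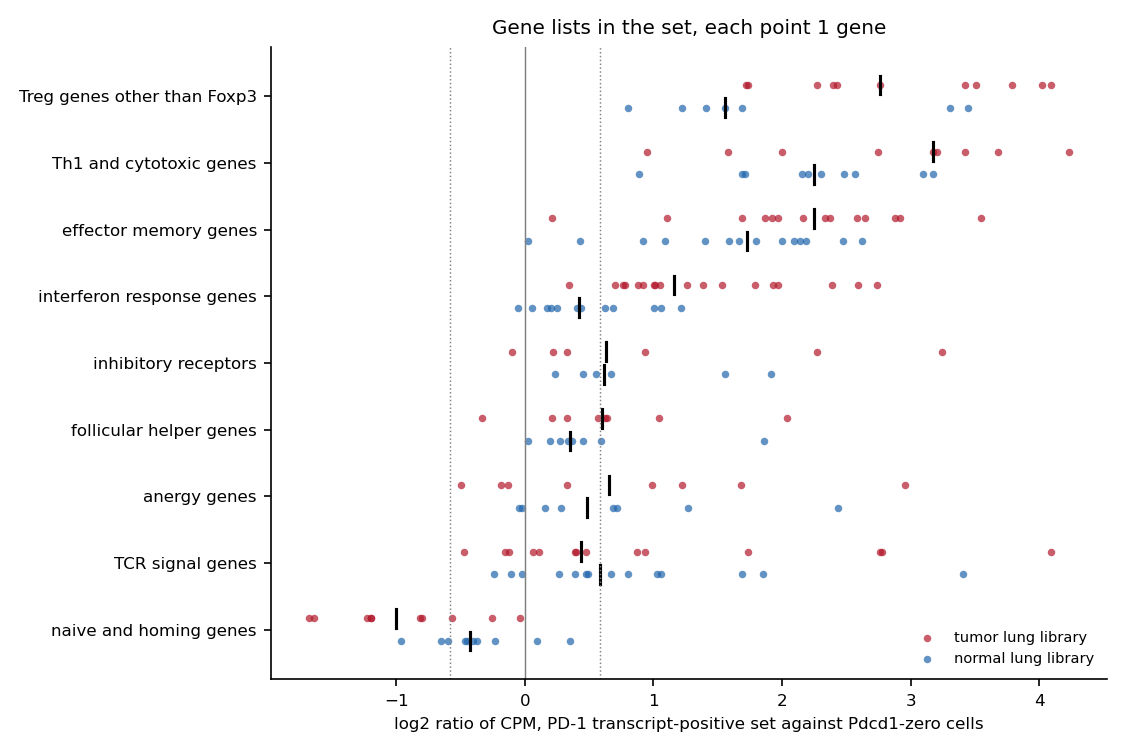
Log2 ratio of CPM in PD-1 transcript-positive members against Pdcd1-zero cells of the same library, for 9 gene lists, with 1 point per gene that passed the 20 CPM limit, red for the tumor-lung and blue for the normal-lung library. Black bars are list medians and dotted lines mark 1.5-fold. The Treg list has the medians 2.76 and 1.56 and the naive list -1.0 and -0.43.

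Follicular helper genes were mostly too low to compare. Of 18, only 8 passed the limit, and of these Maf, Icos, Slamf6 and Sh2d1a were at least 1.5-fold higher in tumor members and Maf and Slamf6 in normal members. Maf, a transcription factor of follicular helper and other cytokine-producing T cells, was at 90.8 against 22 CPM (ratio 4.12, 3.39 to 4.99) and at 65.7 against 18.1 CPM (ratio 3.63, 2.45 to 5.19). The defining genes were near 0. Cxcr5, which guides cells into B cell follicles, gave 9 UMIs in tumor members and 1 in normal members, Bcl6, the lineage factor, gave 13 and 2, and the cytokine gene Il21 gave 1 and 0. A UMI of Cxcr5, Bcl6 or Il21 was found in 6.46% of tumor members (4.04 to 9.71) against 2.74% of Pdcd1-zero cells, and in 2.61% of normal members against 1.57%.

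Genes induced by antigen receptor signals were divided. In the tumor library 6 of 14 that passed the limit were at least 1.5-fold higher in members, with a median log2 ratio of 0.44, and in the normal library 7 of 14, with a median of 0.58. The immediate early genes differed from one another. Nr4a1, often used as a reporter of recent receptor signals, was at 804 against 769 CPM in the tumor library (ratio 1.05, 0.986 to 1.11) and at 448 against 454 CPM in the normal library, and Egr1 at 186 against 207 CPM and at 78.0 against 92.3 CPM. Nr4a2, of the same family as Nr4a1, was higher at 98.2 against 53.7 CPM (ratio 1.83, 1.53 to 2.17) and at 148 against 72.4 CPM (ratio 2.04, 1.59 to 2.58). The transcription factor gene Bhlhe40 was at 804 against 117 CPM (ratio 6.87, 6.42 to 7.36) and at 209 against 57.9 CPM (ratio 3.62, 2.93 to 4.43). Of 9 genes of dissociation stress, Fosb was higher and Jun lower in both libraries, with Jun at 276 against 513 CPM and at 269 against 489 CPM. Of 8 anergy genes that passed the limit, Nrp1, Nt5e, Ndrg1 and Izumo1r were at least 1.5-fold higher in both libraries, and the signalling inhibitors Cblb, Dgka, Dgkz and Itch were within 1.5-fold. Izumo1r and Nt5e, the surface proteins FR4 and CD73 that together mark anergic CD4 cells, were at 228 against 115 CPM and at 67.9 against 21.1 CPM in the tumor library. Both were detected in 10.8% of tumor members (7.62 to 14.7), 2.74% of Pdcd1-zero cells and 26.2% of Foxp3-positive cells of that library. In normal lung they were detected in 5.22% of members (1.94 to 11) and 1.88% of Pdcd1-zero cells (1.57 to 2.24), with overlapping intervals.

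The 10 genes with the largest ratio in tumor members included Tnfrsf9, Klrg1 and Lrrc32 of the Treg list and Ifng of the Th1 list. Il1r2, the decoy receptor for interleukin 1, was at 51.1 against 1.17 CPM (ratio 43.5, 27.9 to 69.7) and absent from normal members. Its 76 UMIs came from 6.46% of the members. Penk, the precursor of enkephalin peptides, was at 83.4 against 3.65 CPM (ratio 22.8, 17.2 to 30.4), with 25% of the UMIs in 1 cell. Cd83, a surface glycoprotein of activated lymphocytes, was at 107 against 5.2 CPM, Fgl2, a secreted mediator of suppression, at 78.0 against 4.32 CPM, and Mt1, a metallothionein, at 50.4 against 3.19 CPM. The lowest ratio belonged to Ly6c1, at 35.0 against 166 CPM (4.74-fold lower, 3.60 to 6.35), followed by Pdlim4 at 16.1 against 68.2 CPM and the tubulin gene Tubb2a at 80.0 against 258 CPM. The same 3 genes were among the 10 lowest in normal members. In normal members the largest ratios were those of Ikzf2, Spry1, Crip2, Lrrc32 and Ifng. Spry1, a feedback inhibitor of receptor signalling, was at 43.1 against 4.06 CPM and Crip2, a LIM-domain protein gene, at 82.2 against 8.26 CPM. In tumor members Crip2 was at 8.74 against 5.41 CPM.

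Members differed among themselves along the number of Pdcd1 UMIs. In the tumor library Tigit stood at 47.6 CPM in cells with 0 Pdcd1 UMIs and at 287, 554 and 652 CPM in cells with 1, 2 and 3 or more. Ctla4 stood at 133, 442, 800 and 885 CPM over the same classes, and Ikzf2 at 14.6, 96.6, 169 and 266 CPM. Tox showed a flatter course of 52.0, 61.3, 76.9 and 101 CPM, in which the intervals of neighbouring classes overlapped. Klf2 had the opposite order, with 924, 682, 441 and 327 CPM. For Tigit, Ctla4, Ikzf2 and Klf2 the intervals of the classes with 2 and with 3 or more Pdcd1 UMIs also overlapped. Those of the classes with 1 and 2 overlapped for Ikzf2 as well. In the normal library Ctla4 was at 59.9, 115, 237 and 385 CPM and Ikzf2 at 8.26, 44.3, 163 and 224 CPM, on 16 and 17 cells in the upper classes. Tigit, Klf2 and Tox had no steady order there. Tigit was at 39.7, 94.4, 340.3 and 224 CPM, Klf2 at 1351, 1620.4, 962 and 1106 CPM, and Tox at 47.6, 56.1, 74.0 and 49.7 CPM.

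**Figure D2:**
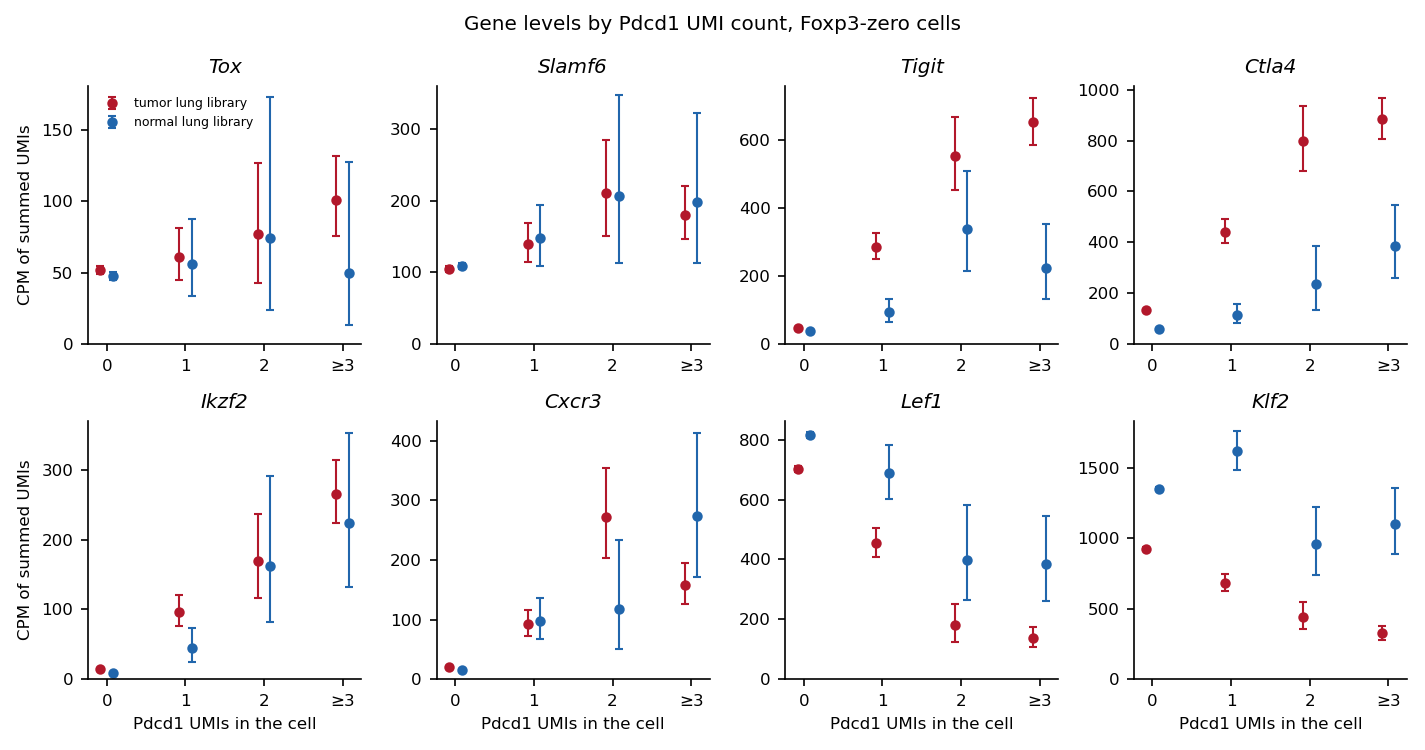
CPM of 8 genes in Foxp3-zero cells grouped by their Pdcd1 UMI count (0, 1, 2, 3 or more), red for tumor lung and blue for normal lung. Points are summed levels and bars exact Poisson 95% intervals. Tigit, Ctla4 and Ikzf2 are higher in each class with more Pdcd1 UMIs in the tumor library, Tox ranges from 52.0 to 101 CPM there, and Klf2 is lowest, at 327 CPM, in the class with most. For each of these genes the tumor-library intervals of the classes with 2 and with 3 or more overlap.

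Cells were also sorted by the transcripts they combined, with gates chosen after levels in these data had been seen. An Ikzf2 or Il2ra UMI was found in 105 of 325 tumor members (32.3%, 27.3 to 37.7), in 4.48% of Pdcd1-zero cells and in 90.9% of Foxp3-positive cells. In the normal library it was found in 18.3% of members (11.7 to 26.5), 2.62% of Pdcd1-zero cells and 64.6% of Foxp3-positive cells. The share among tumor members with 1, 2 and 3 or more Pdcd1 UMIs was 22.4%, 36.4% and 46.7%. A UMI of Tbx21, Ifng, Nkg7 or Ccl5, the Th1 gate, was found in 35.4% of tumor members (30.2 to 40.9) against 3.38% of Pdcd1-zero cells, and in 28.7% of normal members (20.6 to 37.9) against 4.27%. Foxp3-positive cells passed the Th1 gate in 44.6% of cases (41.7 to 47.6) in the tumor library and 3.88% (1.69 to 7.51) in the normal library. The Ikzf2 or Il2ra gate and the Th1 gate overlapped, and 51 tumor members (15.7%) passed both, against 43.9% of Foxp3-positive tumor cells. Both Lef1 and Ccr7 were present in 37.2% of tumor members and 75.4% of Pdcd1-zero cells, and in 63.5% and 83.5% in the normal library. Of the tumor members, 21.2% passed neither of these gates nor the one of Cxcr5, Bcl6 or Il21.

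In the tumor library Tox and the co-inhibitory receptors were at higher levels in the members with an Ikzf2 or Il2ra UMI, which were the smaller number. Tox was at 143 CPM (112 to 181) in tumor members with an Ikzf2 or Il2ra UMI, at 45.0 CPM (32.9 to 60.3) in members with neither, and at 124 CPM (115 to 133) in Foxp3-positive tumor cells. Tigit stood at 859, 252 and 916 CPM in the same 3 groups and Ctla4 at 1080.0, 433 and 1810.0 CPM. Lag3 was at 53.3, 7.01 and 72.6 CPM. Of the tumor members with a Tigit UMI 80 had an Ikzf2 or Il2ra UMI and 89 had neither, and of those with a Ctla4 UMI 87 and 119. Ifng was at 26.6, 75.1 and 7.14 CPM and Slamf6 at 141, 174 and 82.2 CPM, where the intervals of both kinds of member overlapped for Slamf6 and not for Ifng. In the normal library, on 21 members with an Ikzf2 or Il2ra UMI and 94 with neither, Tigit was at 284 and 119 CPM and Ctla4 at 480.3 and 106 CPM. Tox was at 54.6 and 58.2 CPM, Ifng at 142 and 111 CPM and Slamf6 at 186 and 159 CPM in the same members, each with overlapping intervals. When cells with an Ikzf2 or Il2ra UMI were left out of both members and comparison cells, the log2 ratio of Tox in the tumor library went from 0.57 to -0.18 and that of Klrg1, a lectin receptor of terminal effectors and Tregs, from 4.02 to 0.60. The log2 ratio of Tigit went from 3.25 to 2.74 and that of Ifng from 4.23 to 4.76. A count of 0 Foxp3 UMIs does not show that a cell lacked Foxp3, and how many members were Tregs whose Foxp3 transcript was not captured was not tested.

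**Figure D3:**
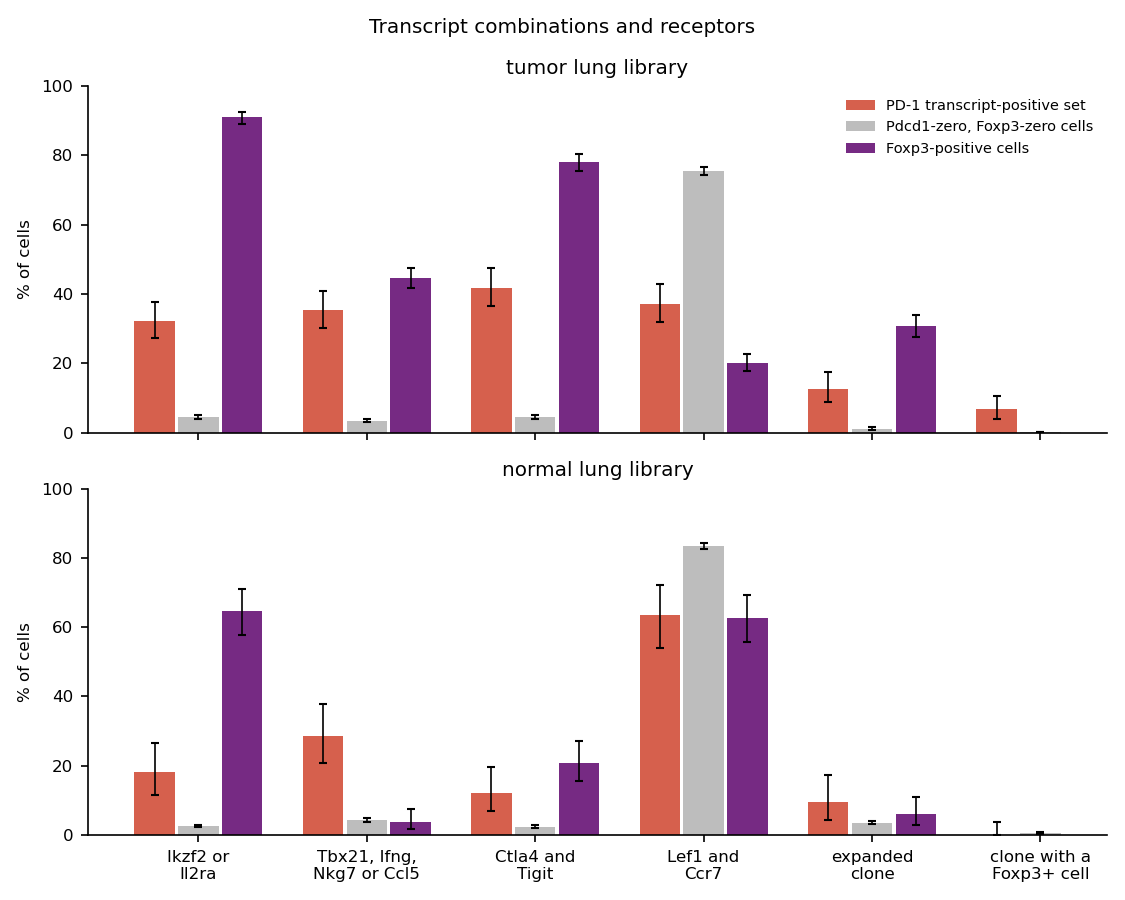
Share of cells in percent with the named transcript combinations, in clones of at least 2 cells, or in a clone that also holds a Foxp3-positive cell, for PD-1 transcript-positive members (red), Pdcd1-zero Foxp3-zero cells (gray) and Foxp3-positive cells (purple) of each library. Bars are shares, error bars exact 95% intervals, and the last category has no purple bar because it is defined by such cells. Of tumor members, 32.3% had Ikzf2 or Il2ra UMIs, between the 4.48% of Pdcd1-zero and the 90.9% of Foxp3-positive cells.

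Against activated cells alone the medians of the Treg and Th1 lists were lower. Among Foxp3-zero cells with a Cd44 UMI, 100 tumor and 28 normal members could be set against 483 and 518 Pdcd1-zero cells. The Treg list then had 11 of 11 genes at least 1.5-fold higher in tumor lung with a median log2 ratio of 2.0, and 3 of 6 higher and 1 lower in the normal library with a median of 0.76. The Th1 list had 9 of 11 higher with a median of 1.03, and 6 of 13 higher and 1 lower with a median of 0.43. For the Th1 list, and for the Treg list in normal lung, these medians cover other genes than those without the Cd44 limit. Different genes passed the 20 CPM limit, so the size of the drop mixes both changes. The background among these cells was 14.5% higher and 6.82% lower in the tumor library, and 22.2% higher and 12.4% lower in the normal library, against 16.2% and 3.16%, and 13.4% and 2.5%, in the comparison without the Cd44 limit. The log2 ratio of Tigit in the tumor library was 1.30 and that of Ctla4 1.19 in these cells.

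The same rule in the other library gave cells with a different transcript content. Between tumor and normal members, 750 of 5493 genes (13.7%) were at least 1.5-fold higher in tumor members and 493 (8.98%) lower, with a median log2 ratio of 0.03. Between the Pdcd1-zero cells of the libraries 132 of 5030 (2.62%) were higher and 39 (0.775%) lower, on far larger sums. Counting error is larger for the 115 normal members than for the Pdcd1-zero cells, and among genes whose interval also lay beyond a ratio of 1 the counts in members were 454 (8.27%) and 268 (4.88%), and in Pdcd1-zero cells again 132 and 39.

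Genes induced by interferon were at higher levels in tumor lung, both in members and in Pdcd1-zero cells. Of 20, the 18 that passed the limit were all at least 1.5-fold higher in tumor than in normal members, with a median log2 ratio of 1.84. Between Pdcd1-zero cells 11 of 13 were so, with a median of 1.10. These medians cover different genes, because some genes passed the limit only in the member comparison. Over all 20 genes, with or without the limit, the medians were 1.84 in members and 1.61 in Pdcd1-zero cells. Ifit3, an antiviral effector, was at 266 CPM in tumor members and 16.4 CPM in normal members (ratio 16.2, 8.12 to 37.7), and at 50.6 and 4.66 CPM in Pdcd1-zero cells (ratio 10.9, 9.02 to 13.2). Isg15, a ubiquitin-like modifier, was at 520 and 113 CPM in members (ratio 4.60, 3.50 to 6.16) and at 151 and 54.1 CPM in Pdcd1-zero cells. Within the tumor library 17 of 18 genes of the list were at least 1.5-fold higher in members than in Pdcd1-zero cells, with a median of 1.16, and within the normal library 5 of 12, with a median of 0.42. Tumor members with 10 or more of the 20 genes detected were 81 of 325 (24.9%, 20.3 to 30.0) and held 64.3% of the list's UMIs in the set. Such cells were 425 of 5584 Pdcd1-zero tumor cells (7.61%), with 34.3% of the list's UMIs there, and 3 of 115 normal members (2.61%), with 20.1%. Cells picked by detection of these genes hold a large part of their UMIs by definition, so the UMI shares are descriptions.

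Treg genes also differed between the members of the libraries. Of 11 that passed the limit, 10 were at least 1.5-fold higher in tumor members, with a median log2 ratio of 1.73. In Pdcd1-zero cells 2 of 5 were so, with a median of 0.54. These counts cover different genes, because some genes, Il2ra and Tnfrsf9 among them, passed the limit only in the member comparison. Over all 14 genes of the list the medians were 1.67 in members and 0.99 in Pdcd1-zero cells. Il2ra was at 82.0 CPM against 1 UMI in normal members (ratio 39.9, 7.04 to 1590.4). Ccr8 was at 239 and 20.5 CPM (ratio 11.7, 6.26 to 24.5) and Tnfrsf9 at 292 and 22.6 CPM (ratio 12.9, 7.15 to 26.1), whereas Ikzf2 differed by 1.84-fold (1.33 to 2.59) and Lrrc32 by 1.19-fold (0.707 to 2.09). Plac8, a small cysteine-rich protein gene, had 128 UMIs in tumor members and 0 in normal members, at least 14-fold higher when 0 is set to 3 counts over the group. Ctla2a, a cysteine protease inhibitor gene, was at 319 and 12.3 CPM (ratio 25.9, 11.8 to 71.0). Tigit was 3.01-fold (2.36 to 3.89) and Ctla4 3.65-fold (2.93 to 4.61) higher in tumor members, while Tox at 1.34-fold (0.883 to 2.11) and Slamf6 at 0.994-fold (0.769 to 1.30) had intervals that held a ratio of 1.

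On the side of normal lung stood naive-cell genes and some of the cytotoxic genes. Of 12 Th1 and cytotoxic genes that passed the limit, Gzma, Ccl5, Il18rap, Nkg7 and Ifng were at least 1.5-fold lower in tumor members, and 5 genes were within 1.5-fold. Gzmb and Gzmk, both granzymes, were higher in tumor members, at 140 against 16.4 CPM (8.51-fold, 4.24 to 20.0) and at 55.8 against 32.9 CPM (1.7-fold, 0.987 to 3.11). Gzma, a granzyme, was at 191 CPM in normal and 18.2 CPM in tumor members (10.5-fold, 6.79 to 16.8), but 1 normal cell held 40.9% of these UMIs. Among cells with a Cd44 UMI the direction of Gzma turned, with a log2 ratio of tumor to normal members of 0.74. Ccl5 was 4.27-fold higher (3.86 to 4.72), on 915 UMIs from 19 normal cells. In Pdcd1-zero cells the corresponding ratios were 9.33-fold (7.63 to 11.5) and 7.06-fold (6.63 to 7.51), so both differences were also present outside the set. Crip2 was 9.40-fold higher in normal members (4.92 to 19.2) and 1.53-fold (1.22 to 1.91) in normal Pdcd1-zero cells. Of 10 genes of the naive list, 6 were at least 1.5-fold lower in tumor members, with a median log2 ratio of -0.64, and none was so in Pdcd1-zero cells, with a median of -0.17. Klf2 was 2.75-fold higher in normal members (2.48 to 3.05) and 1.46-fold higher in normal Pdcd1-zero cells (1.44 to 1.49), and S1pr1 2.06-fold (1.78 to 2.37) and 1.09-fold (1.07 to 1.12). The naive-gated share of members, given above, also differed between the libraries, and its part in these ratios was measured only by leaving out cells with both Lef1 and Ccr7 UMIs, after which 4 of the 9 genes of the list that passed the limit were at least 1.5-fold lower and 1 was higher, with a median of -0.46. Lef1 and Ccr7 are themselves on this list.

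**Figure D4:**
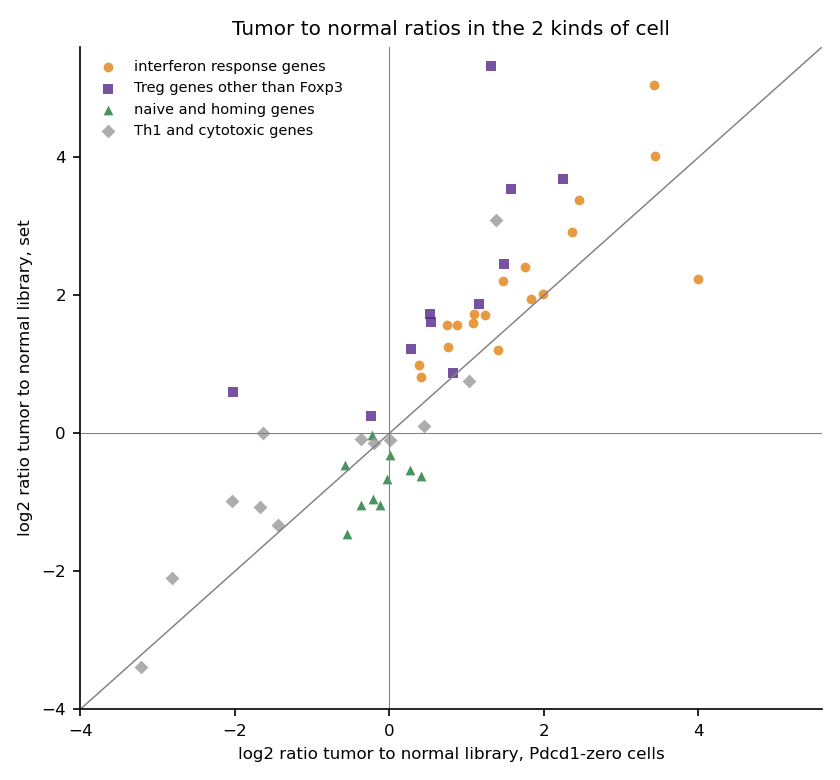
Log2 ratio of CPM between the tumor-lung and normal-lung libraries for genes of 4 lists, in PD-1 transcript-positive members (vertical axis) and in Pdcd1-zero Foxp3-zero cells (horizontal axis), with 1 point per gene that passed the 20 CPM limit in members. The diagonal marks equal ratios. Interferon genes lie to the right of and above 0 on both axes, Il2ra is the highest point, and the naive genes lie at or below 0 on the vertical axis.

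Receptor sequences were not used to rank cells in the rule beyond the limit on chain number. A paired alpha and beta receptor was available for 253 of 325 tumor members and 95 of 115 normal members. A clone was defined by identical CDR3 nucleotide sequences, the part of each chain that contacts peptide, over all productive chains. The members were diverse, with 251 distinct clones among 253 paired tumor members and 93 among 95 paired normal members, and no clone occurred in both libraries. Even so, 32 of 253 tumor members (12.6%, 8.81 to 17.4) belonged to clones with at least 2 kept cells of the library, against 51 of 4491 Pdcd1-zero cells (1.14%, 0.847 to 1.49) and 30.7% of Foxp3-positive cells. In normal lung 9 of 95 members (9.47%, 4.42 to 17.2) were expanded in this sense, against 186 of 5203 Pdcd1-zero cells (3.57%, 3.09 to 4.12). Most Pdcd1-zero cells had both Lef1 and Ccr7 UMIs, 75.4% in tumor and 83.5% in normal lung. Without such cells the shares were 19.7% of 152 members against 4.31% in tumor lung, and 24.2% of 33 against 12.6% in normal lung. Among Pdcd1-zero cells with a Cd44 UMI, 7.16% and 9.60% were expanded, the latter near the share of all normal members. Expanded cells were 7.14% (3.48 to 12.7) of tumor members with 1 Pdcd1 UMI and 19.5% (12.6 to 28.0) of those with 2 or more.

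Clonal partners of tumor members were often Foxp3-positive. The clone of 17 of 253 tumor members (6.72%, 3.96 to 10.5) also held a Foxp3-positive cell, against 6 of 4491 Pdcd1-zero cells (0.134%, 0.0490 to 0.291). Of these 17 members, 15 had an Ikzf2 or Il2ra UMI, 19.0% (11 to 29.4) of the 79 paired members with such a UMI, and 2 of the 174 paired members without one (1.15%, 0.140 to 4.09) had a Foxp3-positive clonemate. Among Pdcd1-zero tumor cells with an Ikzf2 or Il2ra UMI, 6 of 181 (3.31%, 1.23 to 7.08) had a Foxp3-positive clonemate. Of 30 expanded clones with a tumor member, 16 held a Foxp3-positive cell and 12 a Pdcd1-zero Foxp3-zero cell. In normal lung 0 of 7 did so for Foxp3 and 6 for Pdcd1-zero cells. Clones with a Foxp3-positive cell did occur outside the set there. They held 30 of 5203 normal Pdcd1-zero cells (0.577%, 0.389 to 0.822), against 0 of 95 normal members (0 to 3.81). An invariant NKT receptor, TRAV11 with TRAJ18, was found in 1 of 270 tumor members and 1 of 98 normal members with an alpha chain.

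The CDR3 sequences of 4 clones show these patterns, printed 5' to 3' as assembled by the authors. These are all the clones with 2 members. Tumor clone 1 held 7 cells, 2 members, 3 Foxp3-positive cells and 2 Pdcd1-zero cells, and its alpha chain used TRAV7D-5 with TRAJ21. Tumor clone 2 held 3 cells, 2 members and 1 Pdcd1-zero cell, with TRBV20 and TRBJ2-5 in its beta chain. Normal clone 1 held 7 cells, 2 members and 5 Pdcd1-zero cells, with TRBV2 and TRBJ1-1, and 1 of its chains, the beta, is shown because 2 alphas were assembled. Normal clone 2 held 3 cells, 2 members and 1 Pdcd1-zero cell, with TRBV5 and TRBJ1-3.
tumor clone 1 alpha: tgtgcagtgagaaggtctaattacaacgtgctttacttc
tumor clone 1 beta: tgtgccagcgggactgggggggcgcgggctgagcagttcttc
tumor clone 2 alpha: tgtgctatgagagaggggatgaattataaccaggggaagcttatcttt
tumor clone 2 beta: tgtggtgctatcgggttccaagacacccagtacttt
normal clone 1 beta: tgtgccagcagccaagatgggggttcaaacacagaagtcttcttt
normal clone 2 alpha: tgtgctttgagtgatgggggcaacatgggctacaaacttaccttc
normal clone 2 beta: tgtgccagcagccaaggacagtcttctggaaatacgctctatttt
All 4 members of the normal clones 1 and 2 passed the Th1 gate, and none had an Ikzf2 or Il2ra UMI. Both members of tumor clone 1 had such a UMI, and neither member of tumor clone 2 did.

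A pair of tumor clones with 6 cells each, 1 member and 5 Foxp3-positive cells in either, shared the same alpha chain (TRAV13D-2 with TRAJ27) with different beta chains. This pair was singled out after the sequences had been seen. The alpha chain and the beta chains of clones 3 (TRBV14 with TRBJ2-5) and 4 (TRBV13-1 with TRBJ2-5) are shown because the betas have the same length of 42 bases and 7 mismatches.
shared alpha: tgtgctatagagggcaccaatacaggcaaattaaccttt
tumor clone 3 beta: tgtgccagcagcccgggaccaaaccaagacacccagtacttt
tumor clone 4 beta: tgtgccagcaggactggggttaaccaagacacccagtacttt
The alpha sequence was present in 29 kept tumor cells, 23 Foxp3-positive cells and 6 members, and in no Pdcd1-zero Foxp3-zero tumor cell. As a share of cells with an alpha chain this was 2.22% of members (0.820 to 4.77), 2.30% of Foxp3-positive cells (1.46 to 3.43) and 0 of 4727 Pdcd1-zero cells, which allows a share of up to 0.0635% by the limit of 3 cells that a count of 0 allows. All 6 members with it had an Ikzf2 or Il2ra UMI, and 25 of the 29 cells had a Pdcd1 UMI. It was paired with more distinct receptors than any other alpha sequence of the tumor library, 10 clones against 5 for the next. Of its 29 cells, 4 had no beta chain and 20 used TRBJ2-5, a segment in 14% of all kept tumor cells with a beta chain. Those 20 cells include clones 3 and 4 with 6 cells each and another clone with 5, so they are not independent and the share by cell weights these clones. In the normal library 1 Pdcd1-zero cell had this alpha sequence.

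Sharing of an alpha sequence between clones was otherwise common. An alpha CDR3 that also occurred with another beta CDR3 was found in 15% of paired tumor members (10.9 to 20.0), 11% of Pdcd1-zero tumor cells (10.1 to 11.9) and 22.4% of Foxp3-positive tumor cells (19.7 to 25.3), and in 10.5%, 11.4% and 9.27% in normal lung. Among beta V genes TRBV19 was carried by 12.5% (8.81 to 17.0) of tumor members with a beta chain and 7.82% (7.09 to 8.60) of Pdcd1-zero cells, and by 8.74% and 7.69% in normal lung. Many other beta V genes were counted, and the intervals make no allowance for their number. The call TRBV13-2 alone was rarer in tumor members, at 0.368% (0.00931 to 2.03) against 4.07% (3.54 to 4.65). The joint call TRBV12-2+TRBV13-2 was at 9.56% (6.34 to 13.7) against 6.41% (5.75 to 7.12). Because the joint call also names TRBV13-2, lower use of that gene in members is not shown.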

How the data were processed

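Sorted CD4 T cells from tumor-bearing and normal mouse lungs were measured in 1 gene expression and 1 receptor library each. The authors deposited UMI counts per gene and barcode, made with Cell Ranger on mm10 per the submitters' processing notes, and the software version is 3.1.0 per the file headers. The deposited receptor tables list assembled chains with read and UMI counts, and the assembler's version is not given in the sources used here. Gene IDs were looked up in a GRCm38.p6 table, which held 30934 of 31053.

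Counts were summed over the cells of a group and scaled to a total of 1000000 (CPM). Intervals at the 95% level are exact Poisson for levels, exact conditional for ratios and Clopper-Pearson for shares. Ratios were called at 1.5-fold with a mean of at least 20 CPM, a group at 0 was set to 3 counts, and thinned values used 2417 UMIs per cell with seed 1. No doublet caller was run, and cells with extra receptor chains were removed. The calculations were tested on simulated data. With 1 library per state no test between samples was made.

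Some genes are not reported here and were left out of the lists and gates. The members, lists and gates were chosen with earlier results of these data known. Named genes were the 10 largest and 10 smallest ratios per comparison with an interval not holding 1 (without receptor, immunoglobulin, mitochondrial, ribosomal, hemoglobin and sex-linked genes and the 3 genes of the rule), a preset group of T cell genes and list extremes, and the clones with most members. Alternatives varied the cell filters, the Pdcd1 and Cxcr6 limits, scaling, thinning, the CPM limit, the fold and the clone definition. Python 3.11.15, numpy 2.4.6, scipy 1.17.1, pandas 2.3.3 and matplotlib 3.10.9 were used.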

Additional observations from a re-analysis of the deposited data

How the results depend on the processing

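All values rest on 1 library per state, so no replicate was left out, and counting error alone limits the 115 normal members most. No paired analysis was possible because each state has 1 library. Alternatives without Lef1 and Ccr7 cells, with Cd44 cells only and without clones holding a Foxp3-positive cell were chosen after seeing the data. Of the main counts and shares, 94 alternatives stayed close to the reported value and 60 moved, and of the single-gene ratios 1448 stayed close, 371 moved and 16 reversed.

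Counts of genes higher and lower against Pdcd1-zero cells (867 and 169 for tumor lung, 693 and 129 for normal lung) and between tumor and normal members (750 and 493) moved as follows. With at least 2 Pdcd1 UMIs they were 1395 and 362, 1779 and 472, and 1140 lower between members. With median-of-ratios scaling they were 563 and 363, and 391 and 293. With a limit of 50 CPM they were 409 and 77, 239 and 31, and 290 and 175. With no limit they were 7088 and 957 of 15578 genes, 7592 and 957 of 15354, and 2086 and 3877 of 12522. Genes without UMIs in a group were then set to 3 counts, which can place them among the higher or lower genes. The 2 detected B cell markers, without UMIs in normal members, had a median log2 ratio of 3.54 against Pdcd1-zero normal cells. For such genes the no-limit counts give no direction. At 2-fold the counts were 344 and 31, 170 and 25, and 292 and 103. Thinning gave 281 lower in the normal library. Without Lef1 and Ccr7 cells they were 282 lower for tumor lung, 1372 and 546 for normal lung, and 1115 lower between members. With Cd44 cells only they were 373 lower for tumor lung, 1194 and 667 for normal lung, and 1171 and 1125 between members. How many genes of the no-limit counts were placed by the 3-count setting was not counted, and the cause of the other moves was not tested.

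The set share of kept cells was 2.12% and 0.466% in the tumor and normal library with at least 2 Pdcd1 UMIs, 3.08% and 1.33% without Ikzf2 or Il2ra cells, 5.66% in the tumor library with any number of Cxcr6 UMIs, and 1.15% in the normal library after thinning. The expanded share of tumor members was 19.5% with at least 2 Pdcd1 UMIs, 8.62% without Ikzf2 or Il2ra cells, 6.32% for clones of at least 3 cells, 19.7% without Lef1 and Ccr7 cells and 6.36% without clones holding a Foxp3-positive cell. That of normal members was 24.2% without Lef1 and Ccr7 cells. That of Pdcd1-zero tumor cells was 0.752% with comparison cells at 0 Cxcr6 UMIs, 2.16% by beta chain alone, 0.401% for at least 3 cells, 4.31% without Lef1 and Ccr7 cells and 7.16% with Cd44 cells only. That of Pdcd1-zero normal cells was 1.73% with at least 1000 genes and under 5% mitochondrial UMIs, 7.12% by beta chain alone, 1.23% for at least 3 cells, 12.6% without Lef1 and Ccr7 cells, 9.60% with Cd44 cells only and 3.02% without clones holding a Foxp3-positive cell.

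The 16 reversed log2 ratios follow. With at least 2 Pdcd1 UMIs, Isg15 was at -0.42 and Nt5e at -0.0139 against Pdcd1-zero normal cells, and Cxcr5 at -2.28 and Bcl6 at -1.87 between tumor and normal members. Normal members with 2 and with 3 or more Pdcd1 UMIs had no Cxcr5 or Bcl6 UMI (0 of 16 and 0 of 17 cells). Their 0 was set to 3 counts, so these Cxcr5 and Bcl6 ratios give no direction. Between members, Cxcr5 was at -0.12 without Ikzf2 or Il2ra cells, and Mki67 was at -0.90, Cxcr5 at -0.17 and Bcl6 at -1.07 without Lef1 and Ccr7 cells. With Cd44 cells only, Gm14085 was at 0.54, Tox2 at -1.19, Cnn3 at 0.30, Mki67 at -0.37, Nt5e at -0.71 and Cd200 at -0.16 against Pdcd1-zero normal cells, and Gzma at 0.74 and Bcl6 at -0.58 between members. The cause of the other reversals was not tested.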

Other observations

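Genes of other helper programs appeared in members at modest levels. Gata3, the type 2 lineage factor that Tregs also carry, was at 156 CPM in tumor members against 57.2 CPM in Pdcd1-zero tumor cells (ratio 2.73) and at 136 against 63.5 CPM in the normal library (ratio 2.13). Areg, a growth factor of tissue repair, was at 96.2 against 11.2 CPM in the tumor library. Rora, a nuclear receptor of type 17 and tissue T cells, was at 295 against 58.3 CPM and at 201 against 59.8 CPM. Mki67, a marker of dividing cells, gave 16 UMIs in tumor members, at 10.8 against 2.56 CPM.

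Of 12 genes of tissue residency and retention that did not enter the rule, 6 passed the limit for tumor lung and 5 for normal lung. At least 1.5-fold higher in members were 5 and 4 of these, against 16.2% and 13.4% of all genes tested. Rgs1, a brake on chemokine receptor signalling, was at 629 against 223 CPM in the tumor library and at 290 against 83.9 CPM in the normal library, and the early activation receptor gene Cd69 was at 423 against 323 CPM and at 249 against 190 CPM, within 1.5-fold in both.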
